A study of Mus musculus with 34 samples.

Results

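Olfactory and vomeronasal receptor genes were examined in C2C12 cells, a mouse myoblast line that does not belong to the nose. A receptor gene was any gene of the GRCm38 annotation on chromosomes 1 to 19 whose symbol or synonym begins with Olfr, Vmn1r or Vmn2r. Each gene was represented by the 1 kb bins that touch its span with 2 kb on either side. Genes within 100 kb of each other were joined into a cluster. The rule gave 2056 genes (1421 Olfr, 383 Vmn1r and 252 Vmn2r, of which 1463 are protein-coding and 592 are pseudogenes) in 171 clusters. Their 18024 bins are 0.732% of the 2460738 autosomal bins of the study. A further 10 receptor genes on the X chromosome were left out by the rule.

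Olfactory receptors are G protein-coupled receptors that bind odorants, and each olfactory sensory neuron normally uses 1 allele of 1 receptor gene. Class I receptors resemble those of fish, and class II receptors form the larger group found in land animals. Vmn1r and Vmn2r receptors are made in the vomeronasal organ, where they detect pheromones and related signals. The genes lie in dense tandem arrays that are packed as heterochromatin in most cells.

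The libraries came from multi-target chromatin integration labelling (mtChIL-seq), which maps the surroundings of an antibody by inserting a DNA probe with the transposase Tn5 and amplifying the marked DNA by transcription. In dual staining the antibodies of a pair were used on the same cells, and in single staining 1 antibody was used alone. The H3K4me3 (histone mark of active promoters) and CTCF (an insulator-binding protein) pair was stained in 10000 cells and in 1000 cells. The H3K27ac (mark of active promoters and enhancers) and Pol2S2P (elongating RNA polymerase II) pair was stained in 1000 cells and in 100 cells. Each of these 8 dual groups had 3 libraries. Single staining had 2 libraries for CTCF in 10000 cells and 2 for Pol2S2P in 1000 cells. The labels give no treatment, so the results describe 1 cell line. They do not say that replicates were separate cultures, so p-values measure the spread between these libraries, which may be technical.

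Library totals ran from 719766 to 6653298 counts, and receptor bins held between 1622 and 18569 of them in a library. H3K4me3 libraries were shallower (719766 to 1973692 counts) than their CTCF partners in dual staining (2074331 to 5241420). The myoblast label was checked at gene ends, against the mean of all bins. H3K4me3 in 10000 cells reached 30.9 ± 2.19 times the mean at Myf5 and 48.4 ± 4.62 at Vim (SD, n = 3), but 1.13 ± 0.474 at Myod1, 1.04 ± 0.455 at Myog and 0.251 ± 0.228 at Pax7. Myf5 and Vim are active in proliferating myoblasts, whereas the ends of Myod1, Myog and Pax7, which encode other muscle regulators, did not stand out. Over 12 myoblast genes the median H3K4me3 level in 10000 cells was 10.9, and over 8 genes of vomeronasal neurons it was 3.15. Over 22 genes of olfactory neurons and odour transduction the median level was 0.699, and the genes ran from 0.101 at Ano2 to 33.5 at Ebf1. The level was 0.420 ± 0.376 at Omp, the marker protein of mature olfactory neurons, and 0.350 ± 0.314 at Cnga2, a channel of odour transduction, but 12.7 ± 1.4 at Cnga4, another channel subunit, and 25.3 ± 5.63 at Atf5 (n = 3 each).

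The 250 bases before the start of receptor genes were compared with those of other genes, using RefSeq promoter sequences of GRCm38.p6, because promoter composition bears on the marks measured. Sequences matched 1265 receptor genes, with 1270 starts. The median GC content was 34.8% for receptor starts and 56.8% for the 18815 starts of other protein-coding genes. No CG dinucleotide was found in 40.6% of receptor starts and in 3.99% of the other starts, and the median numbers of CG were 1 and 11. The letters TATAAA, searched on both strands, were in 37.6% of receptor starts and in 12.4% of all 31397 starts. The homeodomain letters TAATTA were in 16.1% of receptor starts and in 4.81% of all starts. A core motif of CTCF, also searched on both strands, was in 4 receptor starts, or 0.315%, against 2.11% of all starts. A palindromic motif of EBF, a factor family of olfactory neurons, was in 0.315% of receptor starts and 0.79% of all starts. The muscle E-box letters CAGCTG were in 5.59% of receptor starts and 13.0% of all starts. TATAAA and TAATTA can overlap, and a match is a string of letters, not a bound site. The motif shares were not corrected for base composition, and the median GC content of all starts was 52.4%. No gain or loss of a motif is therefore read from them.

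Few receptor starts stood out in the libraries, and the sequences of those that did are printed first. The bin holding the start was the highest of all 1270 starts in 1000 cells for 1 target each at Vmn2r29 (CTCF), Olfr49 (H3K4me3), Olfr225 (H3K27ac) and Olfr279 (Pol2S2P). Capitals mark the CTCF core letters in Vmn2r29, Olfr1253, Olfr66 and Vmn2r109, the 4 receptor starts that hold them on either strand. They mark CG dinucleotides in Olfr49, Olfr225, Olfr279 and Vmn1r111. Olfr1047 stands for the AT-rich form of the largest cluster, with TATAAA and TAATTA letters of either strand in capitals, one pair of which overlaps. Vmn1r111 shares its 250 bases, letter for letter, with 5 other Vmn1r genes. All are given 5′ to 3′ on the strand of the gene, in GRCm38.p6 coordinates.
Vmn2r29, chr7:7278290-7278539, minus strand: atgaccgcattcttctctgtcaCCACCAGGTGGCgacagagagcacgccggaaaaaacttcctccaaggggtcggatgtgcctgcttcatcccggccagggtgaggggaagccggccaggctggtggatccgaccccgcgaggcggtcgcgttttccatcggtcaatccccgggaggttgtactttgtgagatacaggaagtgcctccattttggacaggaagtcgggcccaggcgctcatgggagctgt
Olfr49, chr14:54282926-54283175, minus strand: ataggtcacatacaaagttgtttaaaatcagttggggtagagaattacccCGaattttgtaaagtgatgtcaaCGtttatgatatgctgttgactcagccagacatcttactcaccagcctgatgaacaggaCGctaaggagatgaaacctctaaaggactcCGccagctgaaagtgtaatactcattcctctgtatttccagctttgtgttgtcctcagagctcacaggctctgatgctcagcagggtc
Olfr225, chr11:59612716-59612965, plus strand: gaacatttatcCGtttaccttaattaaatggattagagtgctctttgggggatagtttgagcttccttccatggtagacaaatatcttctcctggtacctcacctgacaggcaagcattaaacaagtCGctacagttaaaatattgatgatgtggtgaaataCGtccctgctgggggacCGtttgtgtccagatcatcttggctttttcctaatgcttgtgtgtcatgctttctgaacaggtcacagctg
Olfr279, chr15:98497224-98497473, plus strand: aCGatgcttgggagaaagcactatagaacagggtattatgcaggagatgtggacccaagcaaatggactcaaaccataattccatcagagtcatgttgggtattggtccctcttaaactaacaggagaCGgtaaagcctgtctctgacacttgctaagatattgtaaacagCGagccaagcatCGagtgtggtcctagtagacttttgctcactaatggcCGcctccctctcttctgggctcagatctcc
Olfr1253, chr2:89752923-89752982, minus strand: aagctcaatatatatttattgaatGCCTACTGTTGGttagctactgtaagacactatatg
Olfr66, chr7:103882283-103882342, minus strand: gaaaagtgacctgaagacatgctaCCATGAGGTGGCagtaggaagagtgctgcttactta
Vmn2r109, chr17:20564900-20564959, minus strand: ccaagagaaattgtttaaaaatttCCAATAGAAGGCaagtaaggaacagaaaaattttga
Olfr1047, chr2:86228970-86229219, minus strand: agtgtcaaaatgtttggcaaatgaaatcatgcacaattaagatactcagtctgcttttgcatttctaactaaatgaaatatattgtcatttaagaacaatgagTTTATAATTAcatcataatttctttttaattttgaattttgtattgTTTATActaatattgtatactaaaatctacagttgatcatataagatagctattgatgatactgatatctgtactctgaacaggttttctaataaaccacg
Vmn1r111, chr7:20703217-20703466, minus strand: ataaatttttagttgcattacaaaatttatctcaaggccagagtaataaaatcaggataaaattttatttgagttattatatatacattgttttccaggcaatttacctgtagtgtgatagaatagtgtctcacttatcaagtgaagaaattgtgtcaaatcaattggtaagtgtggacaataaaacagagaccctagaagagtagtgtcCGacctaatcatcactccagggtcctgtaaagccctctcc

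Vmn2r29, a vomeronasal receptor gene on chromosome 7, had CTCF counts of 19, 19 and 17 in its start bin in dual-stained 10000 cells, 25 and 22 in single-stained 10000 cells, and 9, 12 and 12 in dual-stained 1000 cells. These were 9.83 ± 0.709, 10.3 ± 2.75 and 10.1 ± 0.838 times the autosomal mean (SD). The bin was picked from the 1000-cell libraries alone, and the level was much the same in the 10000-cell libraries, which took no part in the choice. H3K4me3 had 4, 3 and 2 counts there in 10000 cells, or 4.81 ± 2.01 times the mean, and 2, 0 and 0 in 1000 cells, or 2.34 ± 4.05. With the H3K4me3 libraries of 10000 cells summed, the median of all 1270 start bins was 0 and the highest 7.29. The bin was therefore not high in CTCF alone. H3K27ac had 0, 2 and 0 counts there in 1000 cells. The CTCF core letters begin 228 bases before the start. With 60.8% GC and 17 CG dinucleotides, this stretch is also unlike the typical receptor start, and the nearest other protein-coding gene, Clcn4, lies 4020 bases away. Of the other 3 starts with CTCF core letters, none had a high level of CTCF in dual-stained 10000 cells. Olfr66 had 4, 1 and 0 counts, Olfr1253 had 0, 1 and 0, and Vmn2r109 had 1, 0 and 0.

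Olfr49, on chromosome 14, had H3K4me3 counts of 4, 5 and 5 in its start bin in 10000 cells and 2, 9 and 2 in 1000 cells. The bin stood at 7.4 ± 1.18 and 9.7 ± 6.66 times the autosomal mean (SD, n = 3 each), so that it was high in both, with a wide spread in 1000 cells. CTCF had 6, 13 and 6 counts there in dual-stained 10000 cells. Olfr225, on chromosome 11, had H3K27ac counts of 11, 9 and 6 in 1000 cells and 3, 3 and 2 in 100 cells, or 7.18 ± 1.84 and 5.32 ± 0.846 times the mean. Pol2S2P in dual staining had 5, 4 and 4 counts there in 1000 cells and 0, 3 and 0 in 100 cells. Olfr279, on chromosome 15, had Pol2S2P counts of 3, 3 and 9 in dual-stained 1000 cells, 6 and 1 in single-stained 1000 cells and 2, 0 and 0 in 100 cells, so its level rests on few reads. In dual-stained 1000 cells Pol2S2P stood at 3.77 ± 2.66 times the mean there. The other targets stood higher, with CTCF at 6.75 ± 5.26, H3K4me3 at 6.13 ± 2.28 and H3K27ac at 4.75 ± 1.37. CTCF was 0.917 ± 0.392 in dual-stained 10000 cells. The start bins of Vmn1r111 and of the 5 Vmn1r genes that share its upstream sequence had 0 counts in all 28 libraries. The labels do not say how reads that fit several copies were counted, and its part in these zeros was not tested.

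Averaged over receptor genes, the start showed no peak. In 10000 cells the H3K4me3 level in start bins was 0.265 times the autosomal mean over 1265 receptor genes, and 16.8 times the mean over 15192 other protein-coding genes. At 10 kb upstream of receptor genes it was 0.264, so the level at the start was that of the surroundings. In 1000 cells the levels at receptor starts were 0.325 for H3K4me3, 0.403 for CTCF, 0.369 for H3K27ac and 0.363 for Pol2S2P. At the starts of other genes these were 14.9, 4.07, 2.42 and 2.32. For the 938 olfactory genes H3K4me3 in 1000 cells was 0.341 at the start and 0.371 at 10 kb upstream, and for the 327 vomeronasal genes it was 0.281 and 0.236. Depth limits this view for single genes. Summed over the 3 H3K4me3 libraries of 10000 cells, 65.2% of receptor start bins had 0 counts, and a count of 0 allows up to 1.56 times the mean (3 counts).

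**Figure D1:**
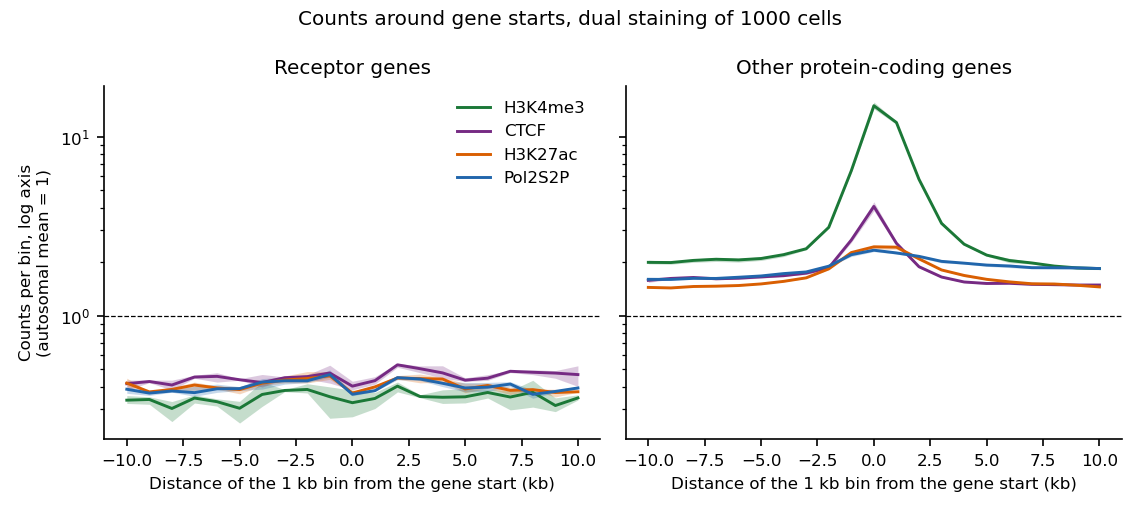
Counts per 1 kb bin (log axis, autosomal mean = 1) against distance from the gene start, for 1265 receptor genes (left) and 15192 other protein-coding genes (right), in dual staining of 1000 cells. Lines are means and bands the range of 3 libraries. Other genes peak at 14.9 for H3K4me3, and receptor genes stay between 0.302 and 0.530 for all 4 targets.

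Over all receptor bins, each of the 4 targets was depleted against the rest of the autosomes. Density is given throughout as counts per bin in a region over counts per bin on chromosomes 1 to 19 in the same library. In 10000 cells H3K4me3 stood at 0.266, 0.272 and 0.261 in its 3 libraries, and CTCF at 0.391, 0.390 and 0.376. In 1000 cells H3K4me3 stood at 0.315, 0.334 and 0.335, and CTCF at 0.403, 0.428 and 0.432. The H3K4me3 libraries all lay below the CTCF libraries of either cell number. H3K27ac stood at 0.393, 0.392 and 0.380 in 1000 cells and at 0.426, 0.401 and 0.362 in 100 cells. Pol2S2P in dual staining stood at 0.395, 0.378 and 0.383 in 1000 cells and at 0.408, 0.406 and 0.382 in 100 cells, so that these targets overlapped.

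Against the other autosomal bins, receptor bins were lower by a mean log2 of -1.77 for H3K4me3, -1.32 for CTCF, -1.36 for H3K27ac and -1.36 for Pol2S2P, in 6 of 6 dual libraries each. Each exact two-sided sign-flip permutation test gave p = 0.031, the smallest that 6 libraries allow. Against gene deserts, the 240305 bins over 500 kb from any protein-coding gene, receptor bins were higher by 0.46 for H3K4me3, 0.40 for CTCF, 0.10 for H3K27ac and 0.35 for Pol2S2P, again in 6 of 6 libraries with an exact p = 0.031. The H3K27ac difference turned to -0.06 (exact p = 0.031) once bins at 0 in every library were left out. Such bins made up 10.2% of receptor bins, 5.95% of the other autosomal bins and 19.8% of deserts. For these bulk libraries, a mark in fewer cells and less of it per cell cannot be told apart.

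**Figure D2:**
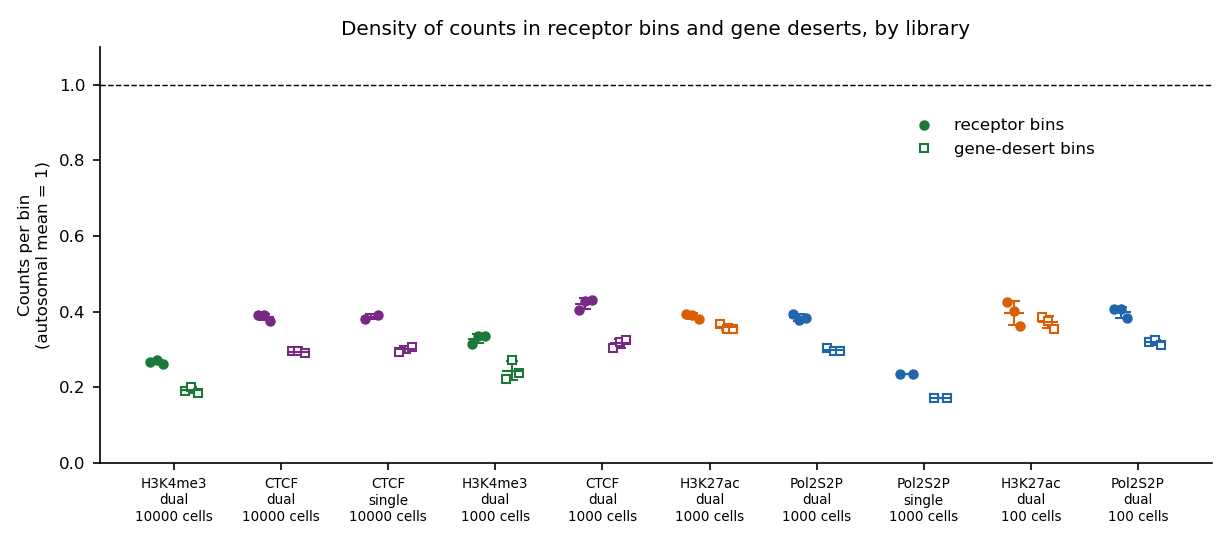
Counts per bin (autosomal mean = 1, dashed) in receptor bins (filled circles) and gene-desert bins (open squares) for each library of each group. Bars are the mean and SD over 3 libraries (2 in single staining). Receptor bins sit between 0.234 and 0.432 in every library, and above the deserts of their own library.

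H3K4me3 was lower than CTCF in receptor bins by a log2 of -0.45, or 0.733-fold, over both cell numbers (exact two-sided permutation test stratified by cell number, p = 0.005, the smallest of 400 permutations). That test ignores the pairing of same-numbered libraries. With these paired, an exact sign-flip permutation test gave p = 0.031, the smallest of 64 sign flips. Within a cell number the difference was -0.54 in 10000 cells and -0.36 in 1000 cells, each with an exact p = 0.1, the smallest that 3 against 3 libraries allow. Relative to gene deserts the difference was 0.05 (exact permutation p = 0.17), so the sign depends on what receptor bins are scaled to. H3K27ac differed from Pol2S2P by 0.0004 (exact permutation p = 0.995) relative to the autosomes and by -0.24 (p = 0.005) relative to gene deserts. Between 10000 and 1000 cells the H3K4me3 density of receptor bins differed by -0.30 and the CTCF density by -0.13 (exact p = 0.1 for both, the smallest possible). Relative to deserts these were 0.03 (exact p = 1.0) and -0.02 (p = 0.1). The H3K4me3 to CTCF difference in 10000 cells minus that in 1000 cells was -0.18 (exact permutation p = 0.57). The permutation shuffled targets within each cell number, so it tests for no target difference at either cell number. It cannot decide whether the difference changed with cell number.

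Pol2S2P libraries of dual and single staining did not overlap. Receptor bins stood at 0.395, 0.378 and 0.383 in dual staining of 1000 cells and at 0.235 and 0.234 in single staining, a log2 difference of 0.72 or 1.64-fold (exact p = 0.1, the smallest that 3 against 2 libraries allow). CTCF stood at 0.391, 0.390 and 0.376 in dual staining of 10000 cells and at 0.381 and 0.392 in single staining (log2 difference -0.004, exact p = 0.8). The Pol2S2P staining effect minus that of CTCF was 0.72 (exact permutation within target, p = 0.04 of 100 permutations). That permutation tests for no staining effect in either target, so it cannot decide whether the 2 effects differ. Gene deserts shifted likewise for Pol2S2P, to 0.298 ± 0.00521 in dual staining (SD, n = 3), against 0.172 ± 0.000637 in single staining (n = 2). Relative to deserts the Pol2S2P difference in receptor bins was -0.08 (exact p = 0.1).

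The families were not alike. In 10000 cells H3K4me3 stood at 0.307 ± 0.00857 in Olfr bins, 0.258 ± 0.0107 in Vmn1r bins and 0.209 ± 0.0109 in Vmn2r bins (SD, n = 3), and CTCF at 0.471 ± 0.0131, 0.317 ± 0.00305 and 0.286 ± 0.00974 in dual staining. H3K27ac in 1000 cells stood at 0.453 ± 0.00557 in Olfr bins, and at 0.319 in both Vmn1r and Vmn2r bins. Olfr bins were highest in every one of these libraries. Bins at 0 in every library were 1.89% of Olfr bins, 25.8% of Vmn1r bins and 16.5% of Vmn2r bins. Such bins add no counts, so they lower the family levels by unequal shares. Leaving them out puts the mean of Vmn1r above that of Olfr for H3K4me3 in 10000 cells. Olfr then stays highest for CTCF in 10000 cells and for H3K27ac in 1000 cells. Within Olfr, the class was read from MOR family numbers among the synonyms. The 160 class I genes stood at 0.231 ± 0.0342 for H3K4me3 in 10000 cells and the 1119 class II genes at 0.319 ± 0.0141, with no overlap between libraries (0.204 to 0.269 against 0.305 to 0.333). For H3K27ac in 1000 cells these were 0.356 ± 0.0221 and 0.474 ± 0.00748. Of the 160 class I genes, 111 lie in the Olfr543 to Olfr650-ps1 cluster on chromosome 7, and 13 and 25 in neighbouring clusters there. Class and locus therefore cannot be told apart, and the spread given is between libraries, not between loci. Protein-coding receptor genes stood at 0.284 and pseudogenes at 0.222 for H3K4me3 in 10000 cells.

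The level differed with distance from the cluster edge, given here as a description with no test. Only long clusters hold bins deep inside, so the bands do not hold the same clusters. With all clusters pooled in each band, position and cluster size were not separated. Among the 68 clusters of 5 genes or more, H3K4me3 in 10000 cells was higher with each step toward the edge, with 0.185 over 200 kb inside, 0.266 at 100 to 200 kb, 0.286 at 50 to 100 kb, 0.310 at 20 to 50 kb and 0.360 in the last 20 kb. Just outside, in the first 20 kb, it was 0.980, and at 100 to 200 kb it was 1.60. CTCF in dual-stained 10000 cells was 0.246 over 200 kb inside and 0.568 in the last 20 kb, then 1.08 in the first 20 kb outside, 0.995 at 20 to 50 kb and 1.21 at 50 to 100 kb. Outside the edge, then, CTCF was above the autosomal mean at once, whereas H3K27ac in 1000 cells was 0.72 and Pol2S2P 0.759 in the first 20 kb. Distance to other genes showed the same trend. For H3K4me3 in 10000 cells, receptor bins within 10 kb of another coding gene stood at 0.477, and those over 200 kb away at 0.197. Of these bins, 44.6% and 0.828% overlap another gene, so the nearer level includes counts from other genes. The levels without such bins were not computed. Bins between receptor genes inside clusters stood at 0.250, close to the 0.266 of the receptor bins themselves.

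**Figure D3:**
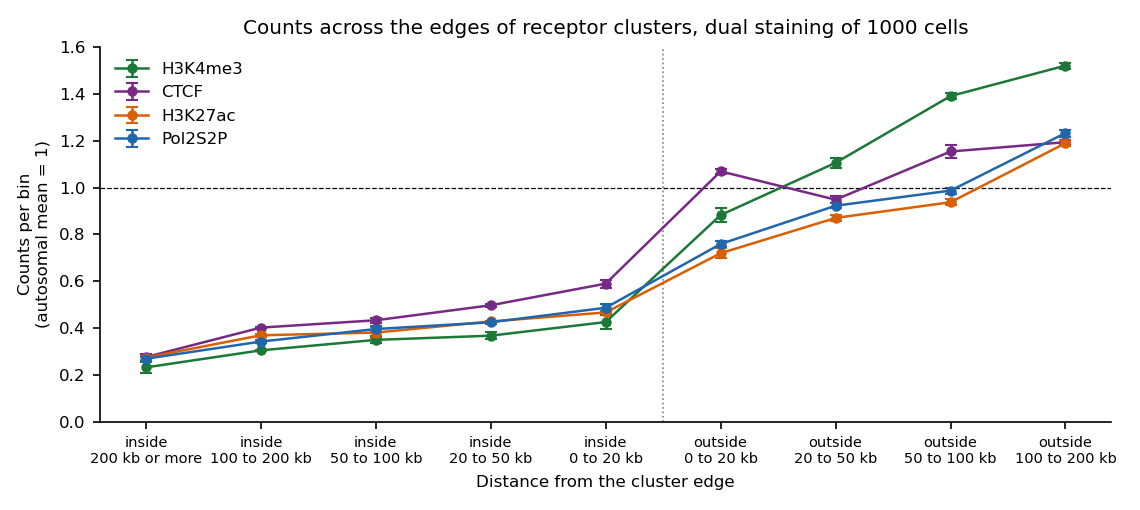
Counts per bin (autosomal mean = 1, dashed) by distance from the edge of the 68 receptor clusters with 5 genes or more, inside (left of the dotted line) and outside, in dual staining of 1000 cells. Points are means of 3 libraries and bars the SD. All 4 targets are lowest deep inside and rise at the edge, where CTCF and H3K4me3 climb most. The deep bands hold bins of long clusters only.

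The 6 clusters with the most receptor genes were all below the autosomal mean. The largest, 284 Olfr genes on chromosome 2 (Olfr996 to Olfr1274, 85579215 to 90401674), stood at 0.218 ± 0.00769 for H3K4me3 and 0.295 ± 0.0139 for CTCF in dual-stained 10000 cells (SD, n = 3), and at 0.322 for both H3K27ac and Pol2S2P in dual-stained 1000 cells. The 127-gene cluster on chromosome 9 stood at 0.195 ± 0.00468 for H3K4me3 and 0.272 ± 0.00693 for CTCF. The class I cluster on chromosome 7 (116 genes, 102476773 to 104207006), which surrounds the β-globin genes, stood at 0.197 ± 0.0187 and 0.375 ± 0.0295. The 79-gene Vmn1r cluster on chromosome 13 stood at 0.171 ± 0.0125 and 0.239 ± 0.00416, and the 63-gene cluster on chromosome 19 at 0.201 ± 0.0348 and 0.283 ± 0.0172. The 69-gene cluster on chromosome 10 was the densest of the 6, with 0.387 ± 0.0634 for H3K4me3 and 0.605 ± 0.0365 for CTCF.

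Among the 48 clusters with 100 receptor bins or more, the median for H3K4me3 in 10000 cells was 0.222 and all 48 lay below the autosomal mean. For CTCF the median was 0.291 and 47 lay below it. The exception was a 15-gene Olfr cluster on chromosome 11 (Olfr1393 to Olfr1380, 49263873 to 49564858), with 1.34 ± 0.144 in dual staining, 1.29 ± 0.0195 in single staining and 1.32 ± 0.0141 in 1000 cells. It was high for the other targets as well, with H3K27ac at 0.882 ± 0.141 and Pol2S2P at 0.994 ± 0.0261 in dual-stained 1000 cells. For H3K27ac in 1000 cells the exception was the Vmn2r10 to Vmn2r17 cluster on chromosome 5 (108995539 to 109453387), at 1.19 ± 0.0226. At the other end were a pair of Vmn1r clusters on chromosome 7. The Vmn1r137 to Vmn1r160 cluster stood at 0.00602 ± 0.00539 for H3K4me3 in 10000 cells, with 155 of its 167 bins at 0 in every library. The Vmn1r91 to Vmn1r-ps75 cluster stood at 0.0041 ± 0.00368, with 204 of its 245 bins at 0.

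**Figure D4:**
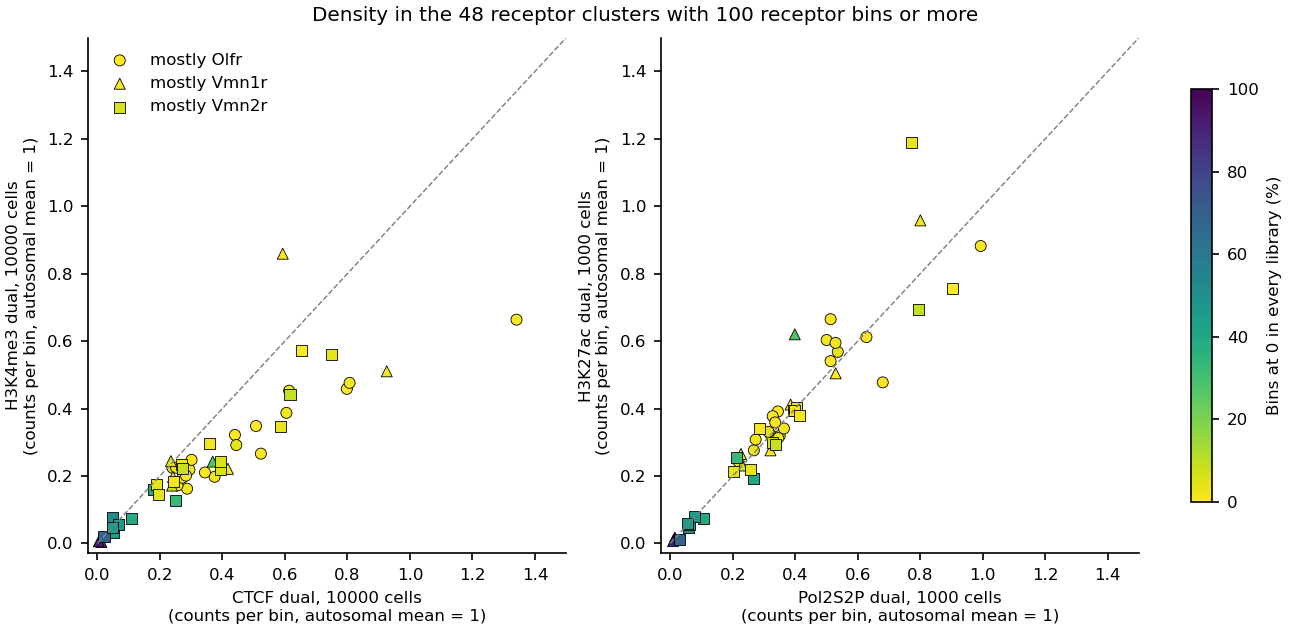
Density (autosomal mean = 1) in the 48 clusters with 100 receptor bins or more, H3K4me3 against CTCF in dual-stained 10000 cells (left) and H3K27ac against Pol2S2P in dual-stained 1000 cells (right). Each point is the mean of 3 libraries, shape gives the main family and colour the share of bins at 0 in every library. Most clusters lie below the dashed line of equality on the left and along it on the right.

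Single bins with a high level were rare in receptor genes. In 10000 cells, 17 of 18024 receptor bins, or 0.0943%, reached 5 times the autosomal mean of H3K4me3, against 2.61% of other autosomal bins. For CTCF in dual staining 60 receptor bins did, or 0.333%, against 2.48% of the others. For H3K27ac in 1000 cells 25 did, or 0.139%, against 2.25%, and for Pol2S2P in dual staining 5, or 0.0277%, against 1.82%.

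The 5 receptor bins highest in CTCF in 1000 cells were each high again in the 10000-cell libraries, which took no part in their choice. The bin 1341 bases from Olfr90, at the edge of a cluster on chromosome 17, had 47, 48 and 39 counts in dual-stained 10000 cells, 36 and 53 in single-stained 10000 cells, and 18, 34 and 29 in dual-stained 1000 cells. H3K4me3 had 3, 8 and 5 counts there in 10000 cells. A bin in Olfr225 on chromosome 11 (59613761 to 59614760), next to the start bin described above, had 47, 44 and 32 CTCF counts in dual-stained and 50 and 53 in single-stained 10000 cells. The other 3 lie beside Olfr1401-ps1 on chromosome 5, within the noncoding gene Gm19583, beside Vmn1r43 on chromosome 6, and in Vmn2r-ps11 on chromosome 3. In dual-stained 10000 cells they stood at 26.0, 16.3 and 14.4 times the mean, and in single-stained cells at 22.1, 12.5 and 14.1.

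High H3K4me3 bins were fewer. Of the top 5 in 1000 cells, 3 adjoin on chromosome 6 at the edge of the cluster that begins with Vmn1r4, and lie within Nt5c3, a nucleotidase gene. They stood at 36.1, 33.6 and 11 times the mean in 10000 cells. The fifth, 1614 bases from Olfr275 on chromosome 4, had 6, 2 and 2 counts in 1000 cells and 0, 2 and 0 in 10000 cells, so it was not high again. The remaining bin lies inside Vmn2r13 on chromosome 5 (109158556 to 109159555), with no other gene within 77322 bases. It had H3K4me3 counts of 9, 19 and 14 in 10000 cells and 4, 7 and 5 in 1000 cells. CTCF had 28, 34 and 25 counts there in dual-stained and 35 and 38 in single-stained 10000 cells. H3K27ac had 21, 17 and 19 counts in 1000 cells and 7, 11 and 7 in 100 cells. Pol2S2P in dual staining had 6, 11 and 9 counts in 1000 cells but 1, 0 and 0 in 100 cells. For H3K4me3, CTCF and H3K27ac this bin stood between 13.1 and 21.5 times the mean in every group. The bins on either side were also high for H3K27ac, at 11.5 and 10.0 times the mean in 1000 cells.

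Cluster by cluster, H3K4me3 was below CTCF in most of the clusters that could be tested, as it was in most windows of the genome. In 10000 cells, 97 of 171 clusters passed the filter on low counts, and 50 of them were lower and 1 higher in H3K4me3 (edgeR quasi-likelihood test, adjusted p under 0.05). Of all 23707 clusters and 100 kb windows tested, 57.5% were lower and 18.1% higher. The median log2 fold change was -0.46 over the receptor clusters tested and -0.53 over all features. In 1000 cells 81 clusters were tested, with 31 lower and 2 higher, against 36.8% lower and 15.8% higher among all features, and with medians of -0.39 and -0.37. A low cluster passes the filter only through the group where it is higher, so these counts describe the clusters tested and not all clusters. The balance depended on scaling. With TMM 14 were lower and 6 higher in 10000 cells, and with libraries scaled to gene deserts 6 were lower and 11 higher. In 1000 cells TMM gave 7 lower and 5 higher, and scaling to gene deserts 5 lower and 4 higher. The median of all features moved to -0.05 and -0.03 with TMM and to 0.06 and -0.01 with desert scaling, in 10000 and 1000 cells. Of the clusters called lower, 27 were called at both cell numbers, which is 54.0% of those in 10000 cells and 87.1% of those in 1000 cells. The matching shares over all features were not computed, so nothing particular to receptor clusters is read from this overlap.

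In 10000 cells the clusters with the largest falls in H3K4me3 against CTCF were lone pseudogenes and a small Vmn1r cluster. Each pseudogene has 5 bins, of which 3 at Olfr1398-ps1 and all 5 at Olfr1401-ps1 overlap another gene. Their counts are therefore not those of a receptor gene alone. Olfr1398-ps1 on chromosome 3 had 1, 3 and 6 H3K4me3 counts and 43, 33 and 31 CTCF counts (log2 fold change -1.84 ± 0.42 SE, adjusted p = 3.22e-05 by edgeR). Olfr1401-ps1 on chromosome 5 had 4, 11 and 8 counts and 67, 76 and 60 (-1.58 ± 0.29, adjusted p = 2.54e-07). It fell in 1000 cells as well (-1.41 ± 0.40, adjusted p = 0.00117), and holds one of the high CTCF bins described above. Vmn1r67 to Vmn1r71 on chromosome 7 had 2, 5 and 3 counts and 29, 31 and 24 (-1.49 ± 0.45, adjusted p = 0.00147), but 0.12 (adjusted p = 0.436) once the bins between its genes were included. In 1000 cells the Olfr1344 to Olfr1350 and Olfr693 to Olfr716 clusters on chromosome 7 also fell, by 1.62 and 0.99 on the log2 scale. The second cluster called higher in H3K4me3 in 1000 cells was Olfr1417 to Olfr1420 on chromosome 19, with 15, 15 and 11 H3K4me3 counts and 19, 22 and 21 CTCF counts, or 14.2 ± 5.75 and 7.59 ± 1.36 CPM (0.85 ± 0.36, adjusted p = 0.0366). The call was lost without the bins it shares with other genes (0.56, adjusted p = 0.249) and without the first H3K4me3, the second CTCF or the third CTCF library (adjusted p from 0.0949 to 0.262). The 1 cluster higher in H3K4me3 at both cell numbers was the chromosome 6 cluster from Vmn1r4 to Vmn1r-ps11. It had 89, 108 and 95 H3K4me3 counts and 205, 218 and 174 CTCF counts in 10000 cells, or 61.0 ± 5.63 and 41.9 ± 0.744 CPM (0.53 ± 0.11, adjusted p = 6.00e-06). In 1000 cells its fold change was 0.59 ± 0.16 (adjusted p = 0.000623), and 0.44 (adjusted p = 0.0551) without the second H3K4me3 library. Without the 3 bins that overlap Nt5c3 it was -0.23 (adjusted p = 0.144) in 10000 cells and -0.04 (adjusted p = 0.885) in 1000 cells.

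Gene by gene, 138 of 2056 receptor genes passed the filter in the 10000-cell comparison of H3K4me3 with CTCF. A gene with few H3K4me3 counts passed only through its CTCF counts, so the genes tested were partly chosen by the difference and do not stand for all receptor genes. Of the 138, 44 were lower and 1 higher, and of all 29160 genes tested 31.7% were lower and 38.2% higher. The medians were -0.55 for the receptor genes tested and -0.03 for all genes, and nothing about the receptor genes is read from that gap. The gene called higher was Vmn1r4, whose bins are shared with Nt5c3 (1.14 ± 0.15). Scaled to gene deserts, 21 receptor genes were lower and 11 higher, and the median of all genes moved to 0.57. The largest falls were at Olfr71 on chromosome 4, with 1, 1 and 3 H3K4me3 counts and 22, 33 and 28 CTCF counts (-2.45 ± 0.53, adjusted p = 1.15e-05), and at Olfr67 on chromosome 7. Olfr67, also called 3'beta1 for its place beside the β-globin genes, had 2, 2 and 1 H3K4me3 counts and 27, 25 and 27 CTCF counts (-2.38 ± 0.54, adjusted p = 2.44e-05). Olfr631, in the same class I cluster, had 0, 5 and 1 against 24, 20 and 29 (-2.02 ± 0.53). Of the 6 fits that each leave out 1 library, Olfr71 and Olfr67 passed the filter in 4 and Olfr631 in 3, and each stayed past the threshold in those. Olfr1441 and Olfr754-ps1 fell by 2.31 and 2.17 on the log2 scale, and were tested in all 6.

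H3K27ac and Pol2S2P split the receptor clusters more evenly. In 1000 cells, 99 clusters were tested, of which 8 were higher and 6 lower in H3K27ac, against 16.6% higher and 21.6% lower among all 23746 features. The medians were -0.01 and -0.02. Scaled to gene deserts, 4 were higher and 32 lower, and the median of all features moved to -0.29. In 100 cells, 75 were tested, with 3 higher and 4 lower, against 11.3% and 13.7% of all features, and scaled to gene deserts 0 were higher and 8 lower (edgeR, 17 at an unadjusted p under 0.05). DESeq2 called 3 higher and 1 lower in 100 cells. The Olfr458 to Olfr455 cluster on chromosome 6 had 96, 126 and 120 H3K27ac counts and 74, 60 and 48 Pol2S2P counts in 1000 cells (1.07 ± 0.16, adjusted p = 1.62e-09), and rose in 100 cells too (0.78 ± 0.28, adjusted p = 0.0271, but 0.0715 to 0.0905 without any of 4 libraries). With 24 bins it stood at 3.97 ± 0.662 times the autosomal mean for H3K27ac in 1000 cells. The Vmn2r10 to Vmn2r17 cluster had 296, 280 and 280 counts and 209, 203 and 206 (0.63 ± 0.09, adjusted p = 1.48e-09), with 0.49 ± 0.17 in 100 cells (adjusted p = 0.0238, but 0.0672 to 0.1 without any of 4 libraries). The Vmn1r58 to Vmn1r65 cluster on chromosome 7 rose in 1000 cells (0.64 ± 0.15, adjusted p = 2.00e-04). Among the clusters lower in H3K27ac, Vmn1r32 to Vmn1r39 on chromosome 6 had 44, 50 and 35 counts and 79, 66 and 71 (-0.58 ± 0.19, adjusted p = 0.00752), and fell in 100 cells as well (-0.98 ± 0.34, adjusted p = 0.0205). It missed the threshold without the third H3K27ac library of 1000 cells (adjusted p = 0.0604) and without any of 3 libraries of 100 cells (0.0505 to 0.150). Olfr1373 to Olfr1371 on chromosome 11 and Vmn2r-ps35 to Vmn2r36 on chromosome 7 fell by 0.78 and 0.56 in 1000 cells, and Vmn2r-ps35 to Vmn2r36 missed the threshold without any of 4 libraries (adjusted p from 0.0639 to 0.156). Olfr1373 to Olfr1371 fell by 1.3 in 100 cells, but missed the threshold without the second H3K27ac or the second Pol2S2P library (adjusted p = 0.0625 and 0.0566). In 100 cells Olfr1416 to Olfr12 on chromosome 1 and Vmn2r80 to Vmn2r83 on chromosome 10 fell by 0.97 and 0.73, and the chromosome 1 cluster missed the threshold without any of 3 libraries (adjusted p from 0.0527 to 0.160). Vmn2r26 to Vmn2r27 on chromosome 6 was called higher in 100 cells (0.79 ± 0.25, adjusted p = 0.0110), with groups that overlapped (38.1 ± 9.89 and 22.2 ± 5.38 CPM), and was lost without any of 3 libraries (adjusted p from 0.0627 to 0.0976).

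Of 179 receptor genes tested for H3K27ac against Pol2S2P in 1000 cells, 15 were higher and 10 lower, and of all 29522 genes 13.0% were higher and 26.1% lower. The same limit of the filter holds for these counts and medians. The medians were 0.04 and -0.18, with TMM 22 were higher and 5 lower, and scaled to gene deserts 10 were higher and 33 lower. Vmn2r13, which holds the bin high in several targets, had 102, 124 and 126 H3K27ac counts and 59, 69 and 62 Pol2S2P counts (1.05 ± 0.15, adjusted p = 9.51e-10). Vmn1r43 rose by 1.12 ± 0.25, Olfr456 by 1.06 ± 0.24, Olfr457 by 1.04 ± 0.32 and Vmn1r58 by 0.96 ± 0.30, with adjusted p of at most 0.00503. Olfr456 and Olfr457 share the chromosome 6 cluster above. Olfr457 missed the threshold without the third H3K27ac library (0.72, adjusted p = 0.134) and Vmn1r58 without the second (0.62, adjusted p = 0.168). Lower genes were Olfr856-ps1 (-1.41 ± 0.38), Olfr1373 (-0.98 ± 0.32), Vmn2r83 (-0.66 ± 0.20) and Vmn2r82 (-0.46 ± 0.20), with adjusted p of at most 0.0490. Of these, Olfr1373 missed the threshold without the third Pol2S2P library (adjusted p = 0.0766), Vmn2r83 without the second (0.115), and Vmn2r82 without any of 5 libraries (0.0622 to 0.259).

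Pol2S2P counts were higher in dual than in single staining in many of the receptor clusters tested. Of 103 clusters tested in 1000 cells, 59 were higher and 0 lower in dual staining, against 43.5% higher and 14.1% lower among all 23763 features, with medians of 0.66 and 0.39. At an unadjusted p under 0.05, 67 clusters passed. DESeq2 called 19 higher and 0 lower, TMM scaling 35 higher and 1 lower, and scaling to gene deserts 3 higher and 7 lower, where the median of all features was -0.40. The largest rise was in Vmn2r-ps94, a lone pseudogene on chromosome 13 with 41, 32 and 29 counts in dual staining and 7 and 8 in single staining (1.98 ± 0.39, adjusted p = 1.74e-05). Olfr211 to Olfr215 on chromosome 6 had 56, 55 and 58 counts and 25 and 15 (1.31 ± 0.27), and the Olfr693 to Olfr716 cluster had 76, 63 and 63 and 31 and 20 (1.22 ± 0.25). For CTCF, 3 of 126 clusters were higher and 0 lower in dual staining, against 0.838% higher and 1.47% lower among all 23873 features. Olfr30 to Olfr311 on chromosome 11 rose by 0.31 ± 0.09 (adjusted p = 0.0354) and Vmn1r-ps25 to Vmn1r54 on chromosome 6 by 0.27 ± 0.08 (adjusted p = 0.0487). Each was lost when 1 of 4 or 5 libraries was left out, with adjusted p up to 0.378 and 0.388. The third was Olfr520 to Olfr521 on chromosome 7, with 36, 18 and 6 counts in dual staining and 10 and 11 in single staining (1.23 ± 0.37, adjusted p = 0.0469). Its groups overlapped, at 4.06 ± 2.95 and 1.80 ± 0.201 CPM. It missed the threshold without the first dual library or either single library (adjusted p from 0.173 to 0.719), and did not pass the filter without the second dual library. DESeq2 called 0 of these 126 clusters, with 2 at an unadjusted p under 0.05, against 9 by edgeR.

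**Figure D5:**
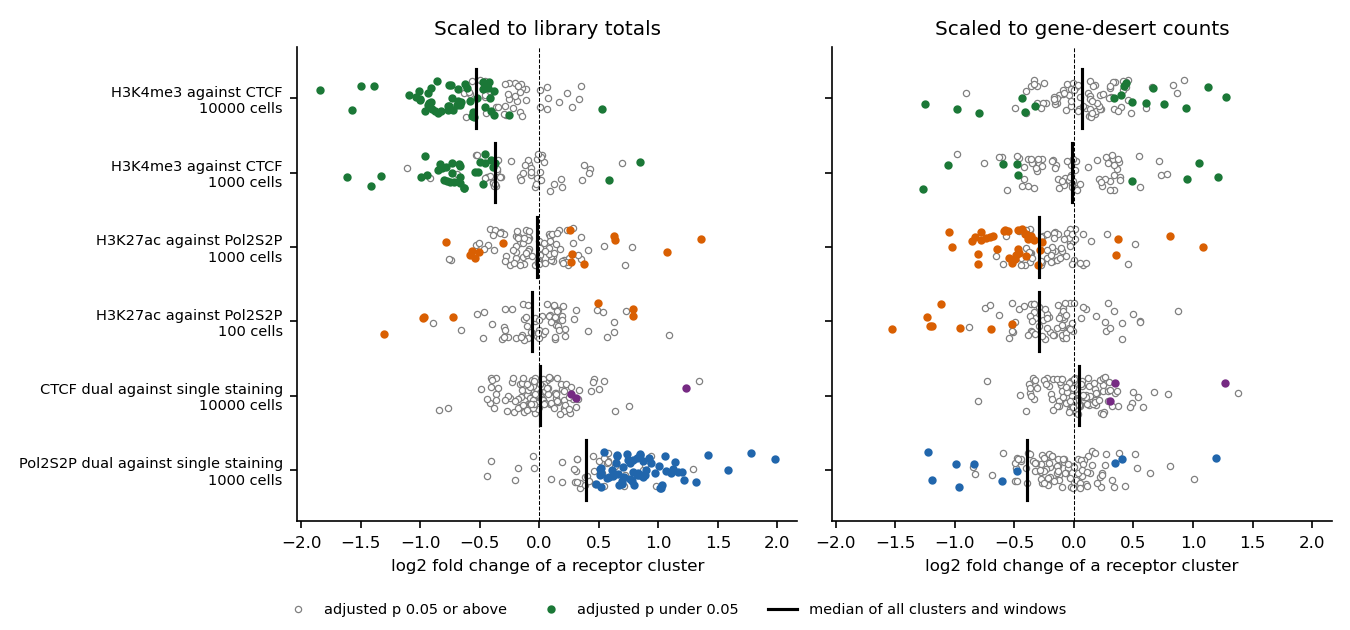
log2 fold change of every receptor cluster tested, for the 6 comparisons, with libraries scaled to their totals (left) and to gene-desert counts (right). Filled points have an adjusted p under 0.05 and the black line is the median of all clusters and windows. With library totals, receptor clusters follow the line to the left for H3K4me3 against CTCF (median -0.46) and to the right for Pol2S2P dual against single staining (median 0.66).

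Genes beside the clusters and genes of the receptor pathways were read for contrast. Of the 1104 other genes within 50 kb of a cluster, those densest in H3K4me3 in 10000 cells were transfer RNA genes. Density was the mean per bin over the gene span with 2 kb on either side, which favours short genes. The leucine and arginine genes n-TLtaa4 and n-TRtct1 on chromosome 19, which share their bins and lie 9027 and 8522 bases from an Olfr cluster, stood at 32.6 ± 1.75 times the autosomal mean, and n-TPtgg5 on chromosome 14, 19205 bases from another, at 30.9 ± 3.51 (SD, n = 3). Values in parentheses from here on are log2 fold changes of edgeR across all genes. Of all genes tested, 38.2% were higher and 31.7% lower in H3K4me3 than in CTCF, and 13.0% were higher and 26.1% lower in H3K27ac than in Pol2S2P. Among 22 genes of olfactory sensory neurons and odour transduction, 19 were tested for H3K4me3 against CTCF in 10000 cells, with 5 higher (Cnga4, Ldb1, Ebf1, Ebf3 and Atf5) and 11 lower. Omp (-1.74), Adcy3, the cyclase of odour transduction (-0.79), Lhx2, a regulator of receptor choice (-0.56) and Emx2 (-2.16) were among the lower genes. Ldb1 (1.36) and Atf5 (2.43) were higher, and so were Cnga4, a channel subunit of odour transduction, Ebf1 and Ebf3. For H3K27ac against Pol2S2P in 1000 cells 17 were tested, with 1 higher (Ebf1, 0.38) and 8 lower. Of 8 vomeronasal genes, 2 were higher (Gnai2, 1.29, and Meis2, 1.37) and 2 lower (Gng8, -0.76, and Bcl11b, -0.82) in H3K4me3, and in H3K27ac Gnai2 (0.61) and Gnao1 (0.17) were higher and Trpc2 (-0.90) and Tfap2e (-0.77) lower. All 16 genes of the heterochromatin machinery were higher in H3K4me3 than in CTCF, among them Cbx5 (1.3), which encodes the heterochromatin protein HP1α, and Trim28 (2.64). Of these 16, 0 were higher and 13 lower in H3K27ac than in Pol2S2P. Of 12 myoblast genes, 11 were tested in H3K4me3, with 7 higher and Myod1 (-2.08), Chrna1 (-0.81) and Pax7 (-1.13) lower, and 10 in H3K27ac, with Myf5 (0.67), Vcam1 (1.21) and Col1a1 (0.80) higher and Cdh15 (-0.52), Vim (-0.49) and Fn1 (-0.64) lower.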

How the data were processed

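The authors deposited raw counts of reads per 1 kb bin of the mouse genome, with 2728634 bins and 32 value columns. Of these columns 28 matched a labelled sample by name and 4 were not used, and 6 of the 34 labelled samples were not analysed here. Per the submitters' processing notes, HISAT2 2.1.0, bcl2fastq and deepTools 3.3.1 were used with GRCm38, in roles not given in the sources used here. Library size was the count on the autosomes and X after removing 9 bins that exceeded the genome mean 50 times in each group. Totals ran from 719766 to 6653298, and intervals of single bins are limited by counting error.

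Clusters together with 100 kb windows, or all genes with 2 kb on either side, were tested with edgeR 4.0.16 (quasi-likelihood, filterByExpr, Benjamini-Hochberg over all features, threshold 0.05) in R 4.3.3. Densities were tested with exact permutation tests over libraries. The fits were tested on simulated data. DESeq2 1.42.0, TMM, gene-desert scaling, no filter, other bin choices, a replicate block and leaving out each library were alternatives. Python 3.11.15, numpy 2.4.6, pandas 2.3.3 and matplotlib 3.10.9 were used.

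The named clusters are the 6 with the most genes and, per comparison and direction, up to 3 called clusters with the largest fold change whose groups did not overlap and whose higher group had 20 counts or more per library. For genes it was up to 5, leaving out those sharing bins with another gene. For bins it was the 5 highest per target in 1000 cells. Sequences were chosen after values were seen. Members and lists were chosen with earlier results of these data known. Olfactory class was read from MOR synonyms, since the gene table holds Olfr symbols. Per the labels, same-numbered dual libraries are the 2 antibodies of 1 dual staining, so the numbers pair them. Their deviations from the group means correlated at 0.0472 to 0.0993 for H3K4me3 with CTCF and at 0.102 to 0.141 for H3K27ac with Pol2S2P.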

Additional observations from a re-analysis of the deposited data

Results flagged for a closer look

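The effect of dual against single staining on the density of receptor bins was compared between targets. The log2 difference for Pol2S2P in 1000 cells minus that for CTCF in 10000 cells was 0.72 (exact permutation within target, p = 0.04 of 100 permutations). Relative to gene deserts it was -0.11 (exact permutation p = 0.01), so its sign depends on the scaling. Both permutations shuffled dual and single labels within each target, which tests for no staining effect in either target. They cannot decide whether the effects differed between targets. Target and cell number cannot be told apart in this comparison.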

How the results depend on the processing

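Receptor clusters called for H3K4me3 against CTCF numbered 51 in 10000 cells and 33 in 1000 cells. They numbered 20 and 12 with TMM, 7 and 6 with DESeq2, and 17 and 9 with gene-desert scaling, and 52 in 1000 cells with whole clusters. For H3K27ac against Pol2S2P, 14 in 1000 cells became 9 with DESeq2, 36 with desert scaling and 27 with whole clusters, and 7 in 100 cells became 4 with DESeq2 and 13 with whole clusters. For dual against single staining, 3 for CTCF became 0 with DESeq2 and 1 with whole clusters, and 59 for Pol2S2P became 36 with TMM, 19 with DESeq2 and 10 with desert scaling. Receptor genes called for H3K4me3 against CTCF numbered 45, with 118 without the filter (more genes tested) and 23 in the gene span alone (fewer tested). For H3K27ac against Pol2S2P 25 became 16 with DESeq2, 43 with desert scaling, 45 without the filter and 6 in the gene span alone. Except where the number of genes tested changed, the cause was not tested. Leaving out 1 library gave 44 to 50, 23 to 32, 11 to 17, 3 to 6, 0 to 2 and 43 to 55 clusters, in the order above, and 34 to 64 and 19 to 27 genes.

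Relative to gene deserts, the density difference of H3K4me3 from CTCF was 0.052 and that of H3K27ac from Pol2S2P -0.24. Relative to the autosomal mean, that of H3K27ac from Pol2S2P ran from -0.0263 to 0.0319 without 1 library. Receptor bins against deserts turned to -0.0611 for H3K27ac without bins at 0 and to -0.0207 with whole clusters. Vmn1r67 to Vmn1r71 turned to 0.12 with whole clusters, and Vmn1r4 to Vmn1r-ps11 to -0.227 and -0.0386 without bins of other genes. With 1 library left out, receptor bins against the rest ran from -1.80 to -1.73 (H3K4me3), -1.34 to -1.30 (CTCF), -1.38 to -1.34 (H3K27ac) and -1.37 to -1.35 (Pol2S2P), and against deserts from 0.444 to 0.485, 0.401 to 0.408, 0.0929 to 0.116 and 0.339 to 0.356, with an exact p of 0.0625, the smallest that 5 libraries allow.

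With the replicate block, clusters called numbered 51, 33, 17, 7, 2 and 54 and genes 44 and 26, and no count moved by more than 1.5 times. The CTCF call at Vmn1r-ps25 to Vmn1r54 in dual against single staining, where the libraries share only a number, was lost (adjusted p = 0.118), and no other named call was.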
